A study of Homo sapiens with 6 samples.

Results

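The ADAM, ADAMTS and MMP metalloproteinases and their TIMP inhibitors were described in K562 cells, a BCR-ABL1 positive human line from chronic myeloid leukaemia with erythroid and megakaryocytic features. The members are the protein-coding genes of the count table whose symbol is ADAM, ADAMTS, MMP or TIMP followed directly by a number, without ADAMTS17, which lies near IGF1R. This gave 66 of the 58440 genes in the table. MMP24OS fits the naming rule but lies on the strand opposite to MMP24 and is not known as a metalloproteinase. It is counted among the 66 members and described apart.

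Both groups are K562 cells. The labels name the 3 treated libraries as IRAIN over-expression and the 3 others as wild type, but their columns in the count table are headed vector, so they are called controls and numbered by column. IRAIN is a noncoding RNA made from the IGF1R locus in the direction opposite to that gene, which encodes a growth factor receptor. The labels do not give the construct, the number of clones or the time of harvest, nor whether libraries came from separate cultures, so p-values measure only sample-to-sample spread, and that spread may be technical. The libraries held 11558983 to 13303139 counts in genes. As the check of the targeted gene, IRAIN had 97, 94 and 106 counts in the treated libraries against 0, 0 and 1, and IGF1R stood at 48.7 ± 1.2 against 30.1 ± 0.17 CPM (counts per 1000000 counts of the scaled library; SD, n = 3 each). All 8 K562 markers listed were detected in both groups, among them GATA1 at 194 ± 8.4 against 204 ± 3.6 CPM (SD, n = 3 each). Of the defining markers of other cells, the lymphocyte gene MS4A1 and the macrophage gene CD68 were listed at 0 in all libraries, and the summed level of the 5 monocyte and macrophage markers ranged from 2.13 to 3.87 CPM with IRAIN over-expression and from 2.24 to 3.50 CPM in the controls.

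ADAMs are membrane proteins with a metalloproteinase and a disintegrin domain, and many act as sheddases that release the outer part of other membrane proteins. ADAMTS enzymes are secreted and carry thrombospondin repeats that bind matrix. MMPs are secreted or held at the membrane and cleave collagen, gelatin and many other substrates. TIMPs are small secreted proteins that block MMPs and some ADAM and ADAMTS enzymes, and most of the proteases are made as inactive precursors that furin-type convertases or other proteases activate. In blood and leukaemia these enzymes are known for the release of cytokines, growth factors and adhesion receptors and for movement through basement membrane.

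A gene was called expressed where its mean reached 1 CPM in either group. By that rule 24 members were expressed: 9 of 20 ADAM genes, 6 of 18 ADAMTS genes, 8 of 24 MMP genes with MMP24OS among them, and 1 of 4 TIMP genes. MMP11 and MMP25 reached 1 CPM with IRAIN over-expression alone, and ADAM32 in the controls alone. The 24 include MMP19, MMP24 and MMP25, whose counts cannot be taken as RNA of the named gene, as described below. Of the 42 others, 9 had 0 counts in all 6 libraries, which allows a level of up to 0.0406 CPM for counting error only, 26 had 1 to 9 counts in all and 7 had more. These last were ADAMTS7 with 46 counts in all, MMP16 with 51, ADAM20 with 26, MMP9 with 18, ADAMTS10 with 17, ADAM18 with 14 and MMP21 with 12. Reads of ADAMTS7, ADAM20 and MMP23B can be lost to near-identical copies elsewhere, so their low counts are uncertain.

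Most secreted MMPs were at or near 0. The 9 MMP genes of the cluster on GRCh38 chromosome 11 (102520508 to 102955734), which holds collagenases, stromelysins and the macrophage elastase MMP12, had 9 counts in all, of which MMP1 held 7, and 6 of the 9 genes were at 0. The gelatinases were near the floor as well: MMP2 had 1 count with IRAIN over-expression against 2 in the controls, and MMP9, a gelatinase of neutrophils and other blood cells, had 9 in each group. MMP11, the stromelysin that furin activates inside the cell, was the exception among the 8 secreted collagenases, gelatinases and stromelysins. It had 1.43 ± 0.45 CPM with IRAIN over-expression against 0.549 ± 0.043 CPM in the controls (SD, n = 3 each). MMP11 thus reached 1 CPM in the over-expression group alone. TIMP2, TIMP3 and TIMP4 held 4, 3 and 9 counts in all, which leaves TIMP1 as the expressed inhibitor.

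Levels of different genes were compared as CPM per kilobase of annotated exon. In the controls the highest was ADAMTS14 at 33.4 ± 0.92 CPM per kilobase, then TIMP1 at 30.2 ± 1.5, ADAM9 at 15.9 ± 0.21, ADAM10 at 11.9 ± 0.083 and MMP15 at 9.22 ± 0.71 (SD, n = 3). This order held in each of the 3 control libraries. On this scale ADAM19 stood at place 17 of the 24 expressed members in the controls and at place 6 in the over-expression libraries, with 0.663 ± 0.046 and 7.81 ± 0.19 CPM per kilobase (SD, n = 3 each).

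**Figure D1:**
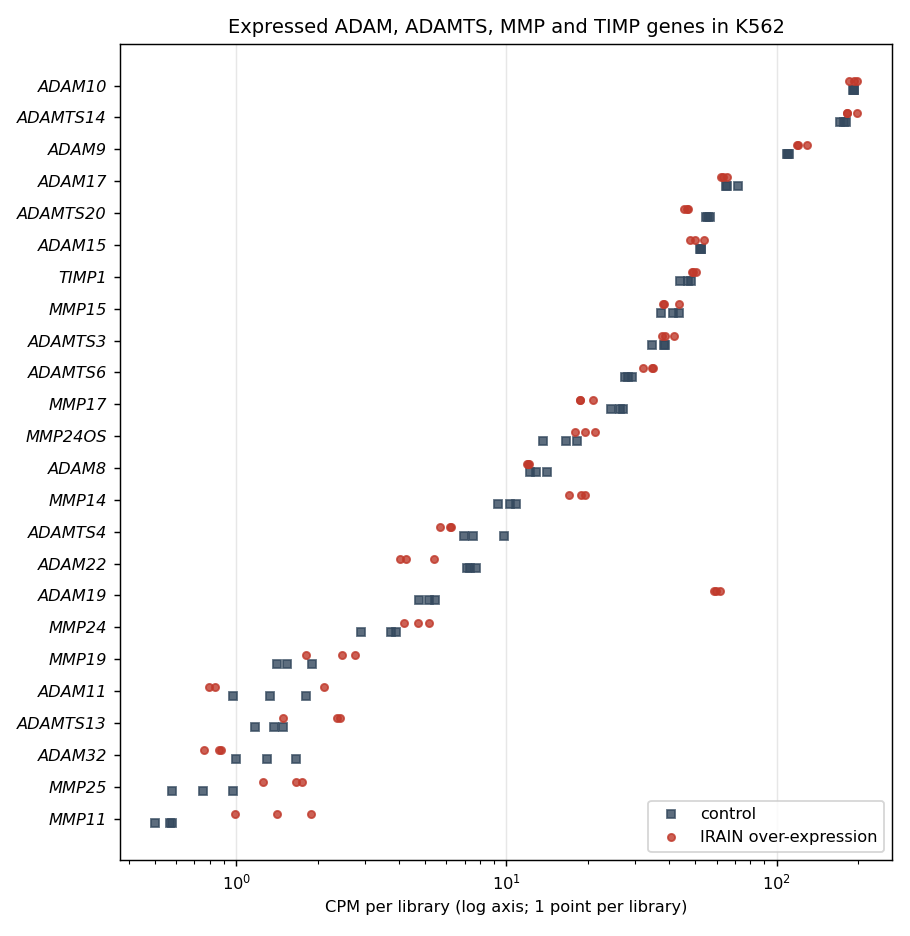
CPM of each expressed member in each library (log axis), with control libraries as squares and over-expression libraries as circles, sorted by control mean. ADAM19 lies at 58.9 to 61.7 CPM with IRAIN over-expression and at 4.73 to 5.42 CPM in the controls, while most other members lie close together in both groups.

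Of the members, 25 had enough counts to test, the 24 expressed ones and MMP16. By edgeR's quasi-likelihood test with Benjamini-Hochberg adjustment over all 18380 genes tested, 12 of the 25 passed an adjusted p of 0.05 (48.0%), 8 of them higher and 4 lower. Over all genes tested 39.3% passed, with 20.3% higher and 18.9% lower, and over protein-coding genes 48.1% passed, so the share among the members is near that background. The groups shared no part of their CPM range for 16 of the 25, against 47.5% of all genes tested. A share over protein-coding genes alone was not computed for this, for direction or for 2-fold change. The median log2 fold change of the 25 was 0.082 against -0.0010 over all genes tested. Changes of at least 2-fold were seen in 3 members, ADAM19, MMP11 and MMP25, where 4.77% of all genes tested passed with such a change. MMP11 and MMP25 were under 1 CPM in the controls (0.549 ± 0.043 and 0.768 ± 0.20 CPM, SD, n = 3). The calls of MMP11 and MMP25 were lost in DESeq2, so of the 3 that of ADAM19 alone held there. Of the 12, 7 differed by less than 1.5-fold. In bulk RNA, fewer cells that express a gene and less RNA per cell cannot be told apart.

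**Figure D2:**
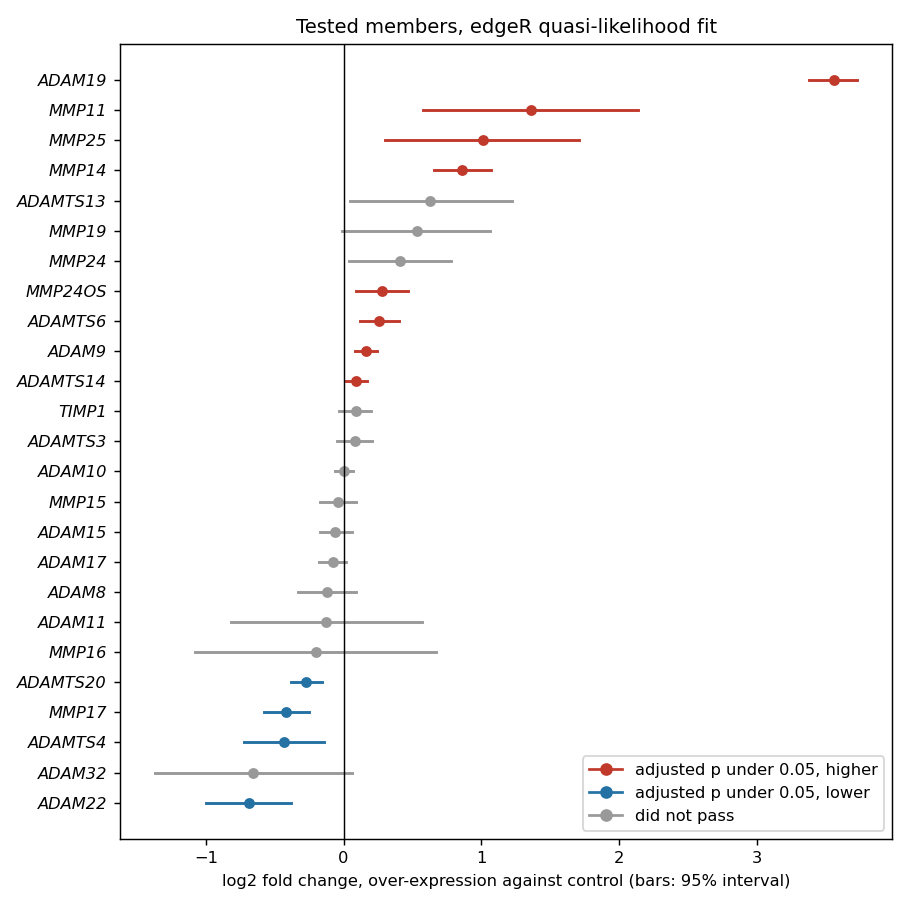
Log2 fold change of each tested member, over-expression against control, with its 95% interval from the edgeR fit. ADAM19 stands apart at 3.56, 7 other members lie higher and 4 lower past the threshold, and 13 did not pass.

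ADAM19 changed most of all members. It is a sheddase known in the mouse for neuregulin release and heart development, and its gene lies on GRCh38 chromosome 5 (157395534 to 157575775, minus strand). Its level was 58.9, 61.7 and 59.9 CPM with IRAIN over-expression against 5.42, 5.18 and 4.73 CPM in the controls. The groups lie far apart and neither has a library away from its group. The fitted change was 11.8-fold (log2 fold change 3.56 ± 0.088 SE, 95% interval 3.38 to 3.73; edgeR adjusted p = 1.6e-41), the 23rd largest rise among all genes tested. Exons of ADAM19 overlap those of CYFIP2 on the opposite strand over 62 bases, and CYFIP2 had 14 counts with IRAIN over-expression against 6 in the controls.

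Of the summed CPM of the 9 sheddases, ADAM19 made up 11.9%, 12.4% and 11.6% with IRAIN over-expression against 1.23%, 1.17% and 1.08% in the controls. The summed sheddase level was 502 ± 11 CPM against 441 ± 2.2 CPM (SD, n = 3 each), and without ADAM19 it was 442 ± 11 against 435 ± 2.0 CPM. ADAM9, a widely expressed sheddase, had 120, 119 and 130 CPM with IRAIN over-expression against 111, 110 and 109 CPM in the controls. The groups do not overlap, and ADAM9 rose slightly (0.16 ± 0.04; edgeR adjusted p = 6.8e-04).

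The sheddases of widest known use at the cell surface did not pass the test. ADAM10, which sheds NOTCH receptors and many other proteins, had 186, 194 and 199 CPM against 194, 191 and 193 CPM. These ranges overlap, and the 95% interval of its log2 fold change was -0.06 to 0.07 (edgeR adjusted p = 0.95). For ADAM17, which releases TNF and ligands of the EGF receptor, the values were 65.3, 62.5 and 63.2 CPM against 64.8, 71.8 and 65.3 CPM, with an interval of -0.18 to 0.02. Its exons overlap those of IAH1 and AC073195.1 on the opposite strand over 1465 bases, and neither of these passed. Reads in that overlap can be lost to ADAM17 where counting ignores strand, so its level may be understated. ADAM15 did not pass either (interval -0.17 to 0.06), and nor did ADAM8, a sheddase of leukocytes (12 ± 0.072 against 13.1 ± 0.94 CPM, SD, n = 3 each; interval -0.33 to 0.09). ADAM12, ADAM28 and ADAM33 had at most 4 counts in all.

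ADAMs that lack the zinc site of the active enzyme are known from adhesion, in the nervous system or the testis. Of these 8 genes, 3 were expressed, all at low level. ADAM22, a neuronal receptor for LGI proteins on GRCh38 chromosome 7 (87934143 to 88202889, plus strand), had 4.04, 4.24 and 5.40 CPM with IRAIN over-expression against 7.34, 7.13 and 7.71 CPM in the controls. Every over-expression library was below every control, and ADAM22 fell by 0.69 on the log2 scale (SE 0.15; edgeR adjusted p = 2.0e-04). ADAM11 and ADAM32, near 1 CPM, did not pass, and their intervals were wide (-0.82 to 0.57 and -1.37 to 0.06).

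**Figure D3:**
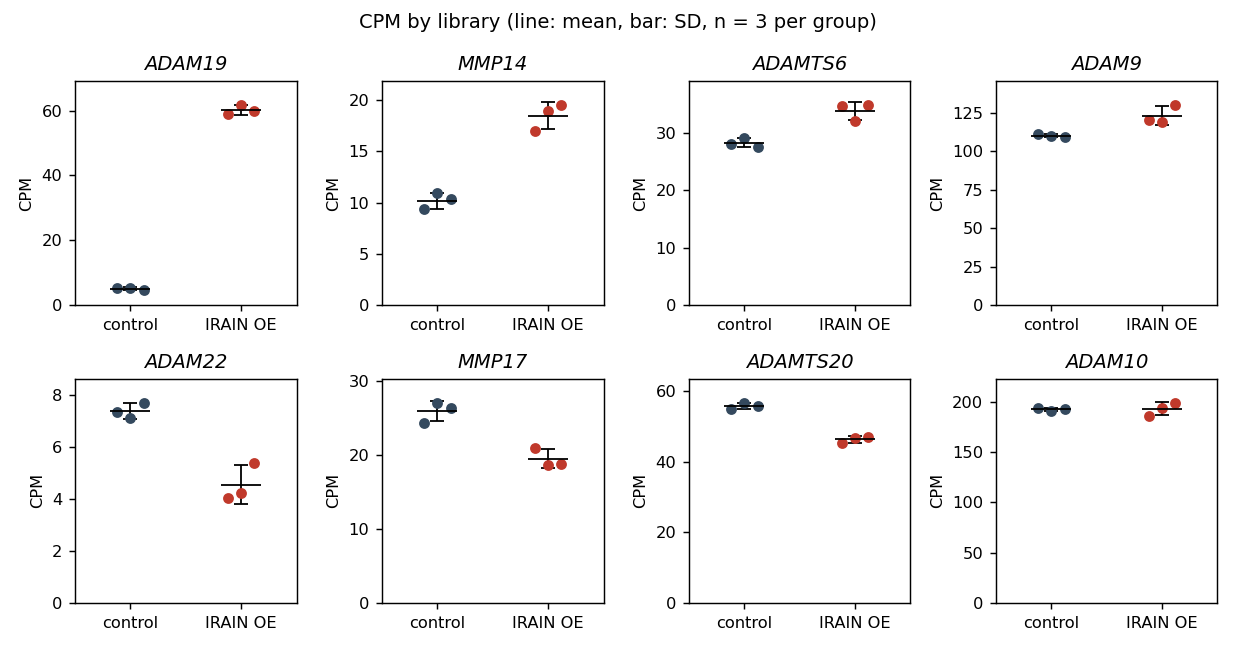
CPM of 8 members in each library (points), with the group mean (line) and SD (bar), n = 3 per group. ADAM19, MMP14, ADAMTS6 and ADAM9 are higher and ADAM22, MMP17 and ADAMTS20 lower in every over-expression library than in every control, and ADAM10 overlaps.

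Both expressed procollagen N-proteinases, enzymes that trim the amino end of fibrillar procollagens, were among the more abundant members. ADAMTS14 had 199, 183 and 183 CPM with IRAIN over-expression against 178, 180 and 171 CPM in the controls. The ranges are close, and ADAMTS14 rose by a small amount (0.09 ± 0.035; edgeR adjusted p = 0.028). That call was lost without over-expression replicate 1 (0.06, adjusted p = 0.23) and without control library 3 (0.07, adjusted p = 0.18), in DESeq2 (adjusted p = 0.15) and with a correction for GC content and length (0.05, adjusted p = 0.23). ADAMTS3, which also takes part in VEGFC activation, did not pass (interval -0.05 to 0.21).

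The proteoglycanases cleave aggrecan, versican and related proteoglycans, and 2 of the 7 were expressed, both lower. ADAMTS20, known in the mouse for melanoblast survival and coat colour, had 45.3, 46.7 and 46.9 CPM with IRAIN over-expression against 55.0, 56.7 and 55.9 CPM in the controls. The gap between the groups is wider than either range, and ADAMTS20 fell by 0.27 on the log2 scale (SE 0.054; edgeR adjusted p = 3.8e-05). ADAMTS4, an aggrecanase, had 6.24, 5.66 and 6.16 CPM against 7.51, 9.80 and 6.96 CPM. Control library 2 is high within its group, and the fall of 0.43 on the log2 scale (SE 0.14; edgeR adjusted p = 0.014) became -0.27 without it (adjusted p = 0.21) and -0.39 without over-expression replicate 2 (adjusted p = 0.065), and did not pass in DESeq2 (adjusted p = 0.14). ADAMTS1, ADAMTS5, ADAMTS8, ADAMTS9 and ADAMTS15 had between 0 and 8 counts in all.

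Of the other ADAMTS genes, ADAMTS6 rose. It had 34.6, 32.0 and 34.8 CPM with IRAIN over-expression against 28.1, 29.1 and 27.5 CPM in the controls, without overlap (0.26 ± 0.069; edgeR adjusted p = 0.0018). ADAMTS13, the protease that trims von Willebrand factor, had 2.37, 1.49 and 2.43 CPM against 1.17, 1.38 and 1.49 CPM. It did not pass (0.63 ± 0.29; edgeR adjusted p = 0.079), and did so without over-expression replicate 2 (0.83, adjusted p = 0.032). Its substrate gene VWF was at 0 in all libraries.

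The membrane-type MMPs act at the cell surface, and 5 of the 6 were expressed by the rule used here. Among these 5 are MMP24 and MMP25, whose counts cannot be taken as RNA of the named gene, as the next paragraph describes. MMP14, which cleaves fibrillar collagen and activates the MMP2 precursor, lies on GRCh38 chromosome 14 (22836557 to 22849027, plus strand). Its level was 17.0, 18.9 and 19.5 CPM with IRAIN over-expression against 9.34, 10.9 and 10.3 CPM in the controls. The groups are well separated, and the rise was 1.82-fold (0.86 ± 0.1; edgeR adjusted p = 1.4e-10). MMP17, which is held by a lipid anchor, moved the other way, with 21.0, 18.7 and 18.8 CPM against 24.4, 27.1 and 26.4 CPM. It fell by 0.42 on the log2 scale (SE 0.081; edgeR adjusted p = 2.2e-05). MMP15, the most abundant of the group in the controls at 40.7 ± 3.1 CPM (SD, n = 3), did not pass (interval -0.17 to 0.09). Summed over the 6 genes, MMP16, MMP24 and MMP25 included, the level was 84.7 ± 3.5 CPM against 81.9 ± 5.5 CPM (SD, n = 3 each). That difference is smaller than the spread between controls.

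Low counts and overlapping genes limit the other MMP calls. MMP11 had 16, 24 and 13 counts in the over-expression libraries against 6, 7 and 7 in the controls. It rose by 1.36 ± 0.39 (edgeR adjusted p = 0.0035), but not past the threshold without over-expression replicate 2 (1.10, adjusted p = 0.059) or in DESeq2 (1.37, adjusted p = 0.065), and exons of CHCHD10, which also rose (0.33 ± 0.074; edgeR adjusted p = 2.5e-04), overlap it on the opposite strand. MMP25, a lipid-anchored enzyme of neutrophils, had 19, 16 and 23 counts against 9, 12 and 7, and rose by 1.01 ± 0.35 (edgeR adjusted p = 0.018). The call was lost without over-expression replicate 1 or 3 or without control library 1 or 3 (adjusted p = 0.053, 0.078, 0.052 and 0.093) and in DESeq2 (adjusted p = 0.15). Its antisense neighbour MMP25-AS1 rose from 3.95 ± 0.69 to 8.72 ± 0.59 CPM (SD, n = 3 each; 1.14 ± 0.15, edgeR adjusted p = 6.6e-09), and its exons overlap those of MMP25 over 1454 bases. The sources used here do not say whether counting used strand, so the counts compared cannot be taken to separate the pair. A second deposited table of counts by strand covers 1 library, carries no sample name and gives no value here. In it MMP25 had more reads on the opposite strand than on its own, as had MMP9, MMP16, MMP19 and MMP24. The strand balance in the other libraries is not known. The counts of these 5 genes, and the call of MMP25, therefore cannot be taken as RNA of the named gene.

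MMP24OS had 17.9, 19.6 and 21.3 CPM with IRAIN over-expression against 16.6, 18.3 and 13.7 CPM in the controls, with overlapping ranges. It rose by 0.28 ± 0.095 (edgeR adjusted p = 0.015), and not past the threshold without control library 3 (0.17, adjusted p = 0.20) or over-expression replicate 3 (0.22, adjusted p = 0.094), or in DESeq2 (0.27, adjusted p = 0.15). MMP24, a neuronal membrane-type MMP on the other strand, had 4.69 ± 0.51 against 3.52 ± 0.54 CPM (SD, n = 3 each), which did not pass (0.41 ± 0.19; edgeR adjusted p = 0.074). MMP19 did not pass (0.53 ± 0.27; edgeR adjusted p = 0.12), and its opposite-strand neighbour TMEM198B rose by 0.31 ± 0.097. MMP16, with 24 and 27 counts in the groups, did not pass either (interval -1.08 to 0.67).

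TIMP1, the inhibitor on GRCh38 chromosome X (47582313 to 47586789, plus strand) that is also known to favour survival of erythroid precursors, had 48.8, 50.5 and 48.9 CPM with IRAIN over-expression against 47.2, 48.4 and 43.9 CPM in the controls. Each over-expression library was above each control by a small margin, and TIMP1 did not pass the test (0.09 ± 0.057, interval -0.03 to 0.20; edgeR adjusted p = 0.24).

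Sequence before the start site is shown for the 2 members with the largest rise and the 2 with the largest fall among those whose call held in every alternative but the test against 1.5-fold and that have an entry in the RefSeq promoter table (build GRCh38.p14), in which 39 of the 66 members were matched. Each is printed 5′ to 3′ on the strand of the gene and ends before the outermost annotated start of RefSeq or GENCODE release 29. Capitals mark a GC box, GGGCGG on either strand. The stretch of ADAM19 is chr5:157575776-157576025 (minus strand), that of MMP14 chr14:22836335-22836556 (plus strand), that of ADAM22 chr7:87934001-87934142 (plus strand) and that of ADAMTS20 chr12:43552204-43552453 (minus strand).
ADAM19: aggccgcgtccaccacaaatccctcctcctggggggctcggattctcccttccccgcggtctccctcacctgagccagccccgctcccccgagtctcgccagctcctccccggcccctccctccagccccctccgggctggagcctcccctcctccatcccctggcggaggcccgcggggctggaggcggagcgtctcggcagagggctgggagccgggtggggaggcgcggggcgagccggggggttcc
MMP14: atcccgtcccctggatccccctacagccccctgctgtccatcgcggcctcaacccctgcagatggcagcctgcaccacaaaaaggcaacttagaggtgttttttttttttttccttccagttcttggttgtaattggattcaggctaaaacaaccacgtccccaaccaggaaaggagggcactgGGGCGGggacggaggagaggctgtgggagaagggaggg
ADAM22: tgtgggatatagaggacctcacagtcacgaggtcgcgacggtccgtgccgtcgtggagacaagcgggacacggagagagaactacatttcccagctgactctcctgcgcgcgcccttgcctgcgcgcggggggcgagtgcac
ADAMTS20: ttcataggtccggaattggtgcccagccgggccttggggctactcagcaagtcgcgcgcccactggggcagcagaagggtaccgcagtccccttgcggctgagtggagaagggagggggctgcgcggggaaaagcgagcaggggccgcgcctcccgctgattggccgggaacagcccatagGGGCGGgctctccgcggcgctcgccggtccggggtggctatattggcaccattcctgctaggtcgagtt
The stretch of ADAM19 was 76.4% G or C and held no GC box. MMP14 and ADAMTS20 held 1 each. A GC box is found in 42.6% of all 35116 promoters over the same 250 bases, in 39.2% over the 222 bases of MMP14 and in 24.3% over the 142 bases of ADAM22. None of the 4 stretches held the AP-1 letters TGANTCA, with N for any base, the GATA letters AGATAA or the TATA box TATAAA on either strand, which occur in 6.6%, 9.2% and 10.7% of all promoters over 250 bases. A match or its absence describes these letters in these windows alone.

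Genes that work with these proteases moved in both directions. Of the iRhom and tetraspanin partners that carry or direct ADAM17 and ADAM10, 3 of 7 tested rose and 2 fell, beside 20.3% higher and 18.9% lower over all genes tested. TSPAN5 rose from 26.6 ± 1.8 to 38.4 ± 0.53 CPM (0.53 ± 0.069; edgeR adjusted p = 2.2e-09) and the iRhom RHBDF2 from 2.59 ± 0.86 to 4.35 ± 0.52 CPM (0.74 ± 0.21), though RHBDF2 did not pass in DESeq2 (adjusted p = 0.062). TSPAN17 fell from 69.8 ± 0.75 to 45.2 ± 1.7 CPM (SD, n = 3 each), and TSPAN14 by 0.09 on the log2 scale, a call that ended without any 1 of the over-expression libraries or control library 3 (adjusted p = 0.057 to 0.30) and in DESeq2 (adjusted p = 0.14). Of the proprotein convertases, 4 of 5 tested rose and 1 fell. FURIN rose slightly, from 227 ± 7.5 to 251 ± 3.7 CPM, and PCSK6 by 0.31 ± 0.064, while PCSK7 fell by 0.36 on the log2 scale. PCSK5 rose from 3 to 42 counts summed over the libraries of each group, but the table by strand lists more of its reads on the opposite strand than on its own, so the rise cannot be taken as one of PCSK5 RNA. Of the other inhibitors 1 of 4 tested rose, the membrane-anchored RECK (0.91 ± 0.37; edgeR adjusted p = 0.042), which did not pass without control library 2 (0.47, adjusted p = 0.35), without any 1 of the over-expression libraries or in DESeq2. Of the ADAMTS-like genes ADAMTSL4 passed narrowly (0.08 ± 0.031; edgeR adjusted p = 0.046), and not when any 1 library other than over-expression replicate 3 was left out.

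**Figure D4:**
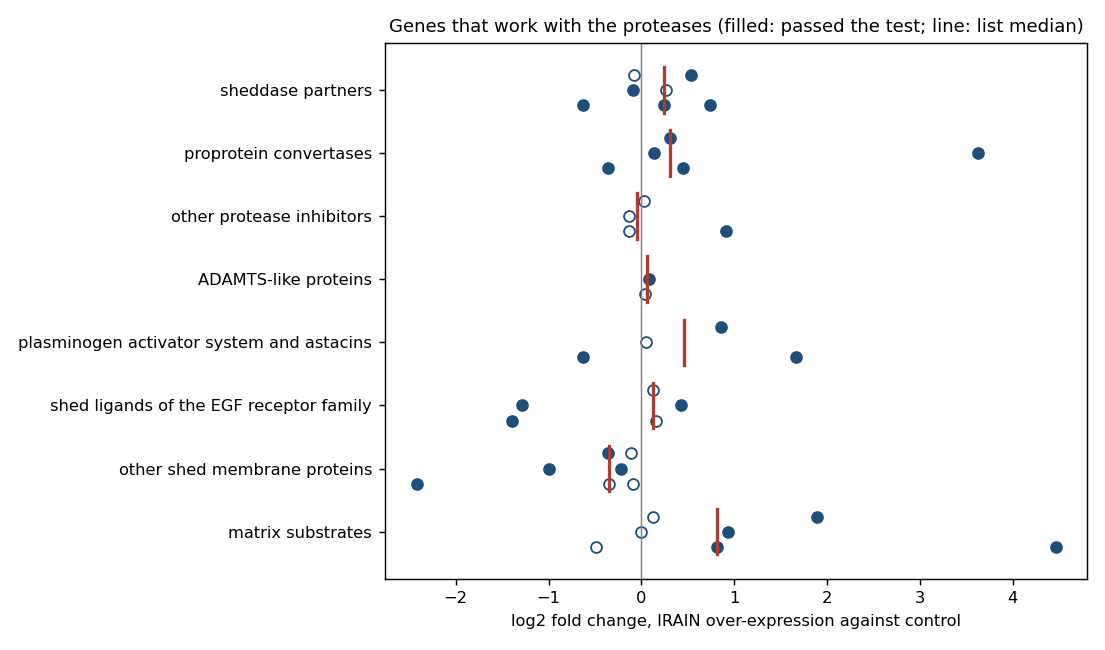
Log2 fold change of each tested gene in 8 lists of partners and substrates (points, filled where the edgeR test was passed), with the list median as a line. The medians run from -0.35 for other shed membrane proteins to 0.81 for matrix substrates, and the ADAMTS-like genes and the other shed membrane proteins are the lists with genes on 1 side of 0 alone.

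The counts of the next lists stand beside the same background, 20.3% of all genes tested higher and 18.9% lower, and 48.1% of protein-coding genes called either way. In the plasminogen activator and astacin group 2 of 4 tested rose and 1 fell. BMP1, the procollagen C-proteinase, rose from 35.7 ± 1.8 to 65.0 ± 1.7 CPM and the activator PLAT from 1.34 ± 0.3 to 4.25 ± 0.35 CPM, whereas the urokinase gene PLAU fell from 10.6 ± 0.32 to 6.85 ± 0.39 CPM (SD, n = 3 each). Among shed ligands of the EGF receptor family 1 of 5 tested rose, AREG (0.43 ± 0.12), and 2 fell. EREG, which ADAM17 is known to release, fell from 24.2 ± 0.51 to 9.28 ± 0.34 CPM (SD, n = 3 each), and EPGN fell by 1.29 on the log2 scale. The table by strand lists more EPGN reads on the opposite strand than on its own, so that fall cannot be taken as one of EPGN RNA. Of 7 other shed membrane proteins tested, 4 fell and 3 did not pass, with a median log2 fold change of -0.35 against -0.0010 over all genes tested. Those that fell include the hyaluronan receptor CD44 (13.4 ± 0.44 to 6.77 ± 0.72 CPM) and the TNF receptor TNFRSF1B (96.2 ± 1.4 to 74.9 ± 0.51 CPM, SD, n = 3 each). Of 7 matrix substrates tested, 4 rose and 3 did not pass, with a median of 0.81 against the same -0.0010. FN1, or fibronectin, rose from 122 ± 1.9 to 453 ± 8.6 CPM, and the proteoglycan VCAN, a substrate of ADAMTS proteoglycanases, from 0.416 ± 0.42 to 9.29 ± 0.44 CPM (SD, n = 3 each). Both expressed proteoglycanases fell in the edgeR test, though ADAMTS4 did not pass in DESeq2. A link between these RNA levels was not tested. The genes of these lists were chosen with earlier results of these data known, so their directions are a description.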

How the data were processed

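Total RNA from 6 K562 samples, 3 per group, was made into libraries with Illumina's TruSeq RNA kit, per the labels' protocols. The submitters' processing notes name STAR and hg38 (GRCh38), without versions or annotation. The authors deposited raw whole-number counts per gene, and the sources used here do not say whether counting used strand. Over-expression columns match the labels by number, and control columns only by group. A second deposited table has 3 columns of counts in the layout of STAR's counts by strand (strand ignored and either strand), for a single library without a sample name. It was read but gives no value here, since no name ties it to a labelled sample; MMP9, MMP16, MMP19, MMP24, MMP25, PCSK5 and EPGN have more reads there on the opposite strand than on their own.

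Identifiers were matched to GENCODE release 29 (58320 of 58440), the source of coordinates, exon lengths and overlaps. Groups were compared with edgeR 4.0.16 in R 4.3.3 (quasi-likelihood F-test, two-sided, TMM scaling, default low-count filter, Benjamini-Hochberg adjustment at 0.05 over all genes tested). SE is the log2 fold change over the square root of F. Libraries of 1 group differed by a chi-square per degree of freedom of 1.36 to 2.31 (genes of 20 or more counts), against 12.9 to 14.5 between groups. None was a copy of another, and each was counted once, which does not show that they are separate cultures. The fit was tested on simulated data. Alternatives used RLE scaling, no filter, DESeq2 1.42.0, limma-voom (limma 3.58.1), robust dispersion, a 1.5-fold null, a GC and length correction (loess, span 0.3), a block on the column number and each library left out.

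Members at 1 CPM or more are named with values, and members under it with 10 or more counts by counts. From each partner list the genes of smallest p are named, at most 2 per direction. FURIN and VWF are named beyond this rule. Other members under 10 counts were named after their values were seen. The members and lists were chosen with earlier results of these data known. Floors cover counting error only, because reads were counted without molecular identifiers.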

Additional observations from a re-analysis of the deposited data

How the results depend on the processing

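Of 12 member calls, those of ADAM19 and MMP14 held in all 14 alternatives, and those of ADAM9, ADAM22, ADAMTS6, ADAMTS20 and MMP17 in all but the edgeR test against a 1.5-fold change. Members higher numbered 8, and 4 in DESeq2, 2 in the 1.5-fold test and 5 to 8 with 1 library left out (5 without control library 3). Members lower numbered 4, and 0 in the 1.5-fold test (0 at an unadjusted p under 0.05; DESeq2 called 3 against no change) and 3 to 4 with 1 library left out. Without the 10 tested members whose exons overlap another gene on the opposite strand, an alternative chosen after seeing the data, 4 were higher, with ADAM19 among those left out, and 4 lower. Over all genes DESeq2 called 2463 higher, against 3734, and the 1.5-fold test 447 higher and 242 lower. With 1 library left out, 3291 to 3550 genes were higher and 3043 to 3210 lower. The number expressed was 26 at 0.5 CPM and 20 at 2 CPM, and 24 with each library left out. Signs turned in 4 members that had not passed. ADAM10 became -1.6e-04 in DESeq2 and -0.03 with the GC and length correction. With 1 library left out, ADAM10 ran from -0.02 to 0.03, MMP15 from -0.10 to 0.01, ADAM11 from -0.75 to 0.13 and MMP16 from -0.59 to 0.06. The cause was not tested. A replicate block on the column numbers left 8 members higher and 4 lower and all genes at 3661 higher and 3416 lower. Same-numbered columns did not deviate together (correlation of deviations -0.04 to -0.01), so the numbers do not pair the samples. Members near or under 1 CPM rest on few counts, and their wide intervals leave large differences undetected.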
